A study of Mus musculus with 2 samples.

Results

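Integrins, laminins and the other matrix ligands of the cell surface were followed in cultured mouse oligodendrocytes that lack Seh1 and in control cells. The genes were taken by name: integrin alpha and beta chains, laminin chains, thrombospondins, and Nid1, Nid2, Fn1, Tnc, Tnr, Vtn, Agrn, Hspg2, Dag1, Spp1 and Postn. The rule found 50 genes among the 18651 listed in either library, 50 in Seh1cKO and 49 in control. The integrins Itgad and Itgax were listed in neither library. The title of the series ties Seh1 to its partners Olig2 and Brd7 and to the differentiation of these cells.

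The tested library, Seh1cKO, is labelled mutant and has a conditional knockout of Seh1l, the gene of a scaffold protein of the nuclear pore. The control library is labelled wild type. Both came from C57BL/6 pups aged 4 to 7 days. Precursors were immunopanned from dissociated cortex on anti-GalC and then anti-O4 plates and grown in CNTF (10 ng/ml), NT3 (1 ng/ml), and PDGF-AA and bFGF at 20 ng/ml each. Differentiation medium for both had triiodothyronine (T3, 60 nM) in place of PDGF-AA, bFGF and NT3, and RNA was taken on day 2. With 1 library per group the genotype could not be tested, each comparison sets 1 library against the other, and no interval below covers variation between cultures or animals. The sources used here do not give the Cre driver or the number of animals.

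Integrins are receptors made of an alpha chain and a beta chain, which bind matrix proteins outside the cell and the actin skeleton through talin and kindlin inside it. Laminins are trimers of an alpha, a beta and a gamma chain, and nidogens, agrin and perlecan tie them into basement membranes. In oligodendrocytes, laminin acting through Itga6 with Itgb1 and through dystroglycan is known to aid survival, process outgrowth and myelination. Integrins that contain Itgav are known to act in proliferation and differentiation of precursors, and the tenascin Tnc is known to hinder the migration and differentiation of precursors.

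The depths were close, with estimated counts summing to 20599573 reads in Seh1cKO and 20730124 in control. Seh1l itself was at 18.5 CPM (reads per 1000000 reads) in Seh1cKO and 32.1 CPM in control, so part of its RNA remained in the library labelled Seh1cKO. The libraries also differed in sex-linked RNA, with Xist at 341 CPM in Seh1cKO and 0.868 CPM in control. Ddx3y was at 0.146 CPM in Seh1cKO and 50.8 CPM in control, and Eif2s3y at 0.0485 CPM in Seh1cKO and 82.2 CPM in control. With 1 library per group, a difference by sex and a difference by genotype cannot be told apart. Oligodendrocyte markers, with Sox10 among them, were present in both libraries, at a summed 1290 CPM in Seh1cKO and 5487 CPM in control. All 13 measured ones were at least 2-fold lower in Seh1cKO. Mobp, of the same list, was below 1 CPM in both. Precursor markers summed to 3856 CPM in Seh1cKO and 3574 CPM in control but went both ways, with 2 of 10 measured at least 2-fold lower and none 2-fold higher. Gpr17 was at 113 CPM in Seh1cKO and 386 CPM in control, C1ql1 at 20.4 CPM in Seh1cKO and 53.9 CPM in control, and Pdgfra at 277 CPM in Seh1cKO and 156 CPM in control. The sum of astrocyte markers was 8187 CPM in Seh1cKO and 12366 CPM in control, of which Gfap held 2214 CPM in Seh1cKO and 5200 CPM in control. Gfap was the only 1 of 11 measured past 2-fold. In Seh1cKO 8 of the 11 were lower and 3 higher, with a median log2 ratio of -0.23. In bulk RNA, fewer cells of a type and less RNA per cell cannot be told apart.

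Upstream sequence is shown for 4 of the genes with the larger differences, as context for the values that follow. They are the genes at least 2-fold higher in Seh1cKO whose window in the RefSeq promoter table (GRCm38.p6) begins at the outermost RefSeq start of the gene. Each line gives the 250 bases before the start, 5′ to 3′ on the strand of the gene, and capitals mark the motifs found.
Nid1, chr13:13437352-13437601, plus strand: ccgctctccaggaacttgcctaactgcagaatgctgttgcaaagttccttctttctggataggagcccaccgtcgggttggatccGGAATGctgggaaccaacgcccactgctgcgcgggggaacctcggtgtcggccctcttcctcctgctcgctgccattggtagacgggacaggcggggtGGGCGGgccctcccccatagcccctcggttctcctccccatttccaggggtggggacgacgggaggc
Spp1, chr5:104434861-104435110, plus strand: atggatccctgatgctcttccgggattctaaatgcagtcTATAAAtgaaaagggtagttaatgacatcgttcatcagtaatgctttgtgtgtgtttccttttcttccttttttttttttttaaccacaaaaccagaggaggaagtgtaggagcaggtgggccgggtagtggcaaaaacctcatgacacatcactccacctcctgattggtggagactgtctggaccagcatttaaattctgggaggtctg
Tnc, chr4:64047016-64047265, minus strand: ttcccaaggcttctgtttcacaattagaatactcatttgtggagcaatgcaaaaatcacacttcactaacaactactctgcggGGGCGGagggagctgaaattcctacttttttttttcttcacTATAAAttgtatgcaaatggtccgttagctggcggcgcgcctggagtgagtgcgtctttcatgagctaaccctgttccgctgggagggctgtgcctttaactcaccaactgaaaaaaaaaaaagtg
Itgb8, chr12:119238277-119238526, minus strand: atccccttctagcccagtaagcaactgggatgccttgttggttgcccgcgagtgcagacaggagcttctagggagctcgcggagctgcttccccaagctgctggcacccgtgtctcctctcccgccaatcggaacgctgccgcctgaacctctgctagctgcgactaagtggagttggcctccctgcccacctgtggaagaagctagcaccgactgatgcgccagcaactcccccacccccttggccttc
In Nid1 the capitals are a TEAD motif (GGAATG) that begins 165 bases before the start and a GC box (GGGCGG) at 67 bases. In Spp1 they are a TATAAA run that begins 211 bases before the start. In Tnc they are a GC box at 167 bases and a TATAAA run at 126 bases. None of the motifs searched was in the Itgb8 stretch.

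Both strands of 42 windows of 300 bases, from 34 of the 50 genes, were searched for the same motifs and for AP-1 (TGANTCA) and the CArG box, with no overlap between motifs removed. A GC box was in 22 of the 42 windows (52.4%), against 35.7% of all 32851 windows in the table. TATAAA was in 14.3% of the windows of these genes and 13.6% of all windows, TEAD in 14.3% and 14.7%, and AP-1 in 4.76% and 7.81%. The CArG box was in 4.76% and 1.63%. These are matches of letters and say nothing of binding.

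Across the group, matrix ligands made up most of the large differences. Of the 50 genes, 42 averaged 1 CPM or more in the libraries and were measured. The measured genes were compared on log2(CPM + 1), where 13 of 42 (31%) were at least 2-fold higher in Seh1cKO, against 2.86% of all 13758 measured genes. The count was 8 of 42 with a pseudocount of 5 CPM, against 1.02% of all measured genes. On log2(FPKM + 1), from the deposited FPKM, it was 8 of 33, against 1.8%. None of the 42 was at least 2-fold lower, against 1.29% of all measured genes. The median log2 ratio of Seh1cKO over control was 0.60, with values between -0.51 and 2.88, against 0.07 over all measured genes. By that ratio 34 of the 42 were above 0 and 8 below, against 60.9% of all measured genes above 0. Of the 23 ligand genes 11 were at least 2-fold higher, and of the 19 receptor genes 2, Itga3 and Itgb8. The median log2 ratio was 0.98 for ligands and 0.34 for receptors.

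**Figure D1:**
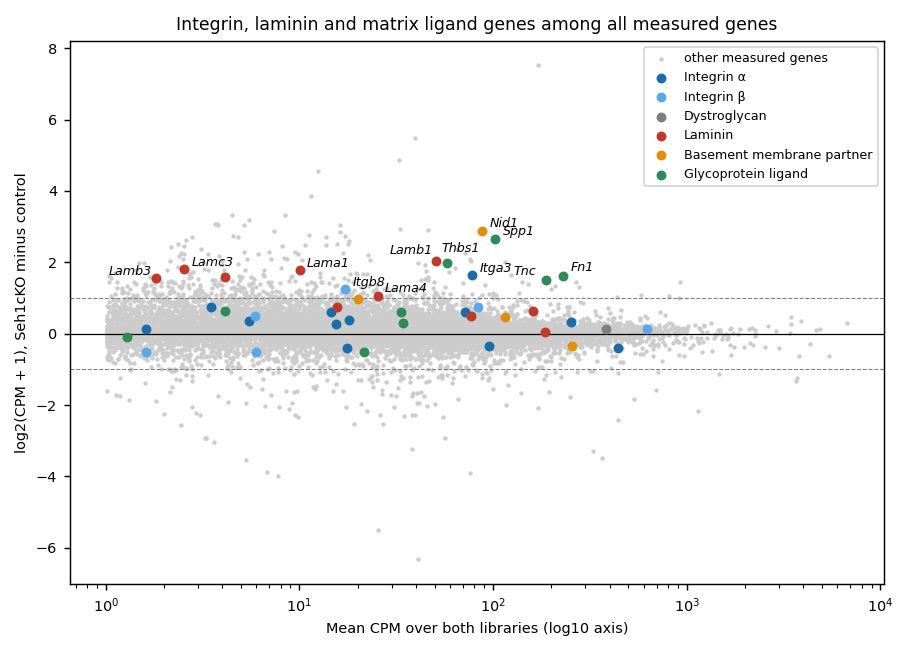
Each point is a gene with a mean of at least 1 CPM. The x axis is its mean CPM over both libraries on a log10 axis and the y axis its log2(CPM + 1) in Seh1cKO minus control, with integrin, laminin and ligand genes coloured by family and dashed lines at 2-fold. The 13 genes at least 2-fold higher lie above the upper line, Nid1 highest at 2.88, and no coloured point lies below the lower line.

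The large differences were found at every level of expression. Of 11 genes with a mean of 100 CPM or more, 3 were at least 2-fold higher, against 0.807% of the 2355 measured genes at that level. Between 10 and 100 CPM, 7 of 20 were, against 1.66% of 7898, and between 1 and 10 CPM 3 of 11, against 6.96% of 3505. Fold values of single genes below are ratios of CPM without the added 1, each with an exact 95% Clopper-Pearson interval that covers counting error only. The reads carry no molecular identifiers, so the true counting error may be larger. By these intervals 32 of the 42 ratios lay above 1, 7 below, and 3 (Lamb2, Itga10 and Vtn) were not separated from 1 at this depth.

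Markers of other cell types stood apart in the same libraries and are given here for all the genes that follow. Fibroblast and mural cell markers summed to 770 CPM in Seh1cKO and 308 CPM in control, with 6 of 10 measured at least 2-fold higher and none of the 12 at 0. Among them Col1a1 was at 184 CPM in Seh1cKO and 45.2 CPM in control. Cspg4, which precursors also express, was at 148 CPM in Seh1cKO and 98.8 CPM in control, and Tagln at 91.1 CPM in Seh1cKO and 54.1 CPM in control. The 6 past 2-fold were Col1a1, Col1a2, Col3a1, Dcn, Lum and Pdgfrb, and Rgs5, Acta2, Tagln and Cspg4 were higher within 2-fold. Kcnj8 had 6 reads in Seh1cKO and 5 in control, and Abcc9 had 19 reads in Seh1cKO and 17 in control. Markers of simple epithelia and mesothelium summed to 219 CPM in Seh1cKO and 11.3 CPM in control, with 8 of 9 measured at least 2-fold higher. Krt8 was at 78.7 CPM in Seh1cKO and 0.772 CPM in control, and its filament partner Krt18 at 63.9 CPM in Seh1cKO and 1.21 CPM in control. Msln, mesothelin, was at 24.9 CPM in Seh1cKO and 0.0965 CPM in control. Epcam, the 1 measured marker not 2-fold higher, was at 7.04 CPM in Seh1cKO and 7.91 CPM in control. Its ratio of 0.890 (0.707 to 1.12) was not separated from 1. Upk3b and Wt1 had no reads in Seh1cKO, and Cldn4 and Esrp1 none in control. Endothelial markers summed to 63.5 CPM in Seh1cKO and 28.4 CPM in control, with 2 of 6 measured at least 2-fold higher. Cdh5, the cadherin of endothelial junctions, was at 13.8 CPM in Seh1cKO and 1.01 CPM in control, a ratio of 13.6 (8.73 to 22.3), and Esam at 4.61 CPM in Seh1cKO and 0.772 CPM in control, a ratio of 5.98. Slco1c1, the most abundant of the list, was at 32.3 CPM in Seh1cKO and 16.1 CPM in control. Kdr was at 4.95 CPM in Seh1cKO and 5.35 CPM in control. By the counting intervals 4 of the 6 ratios lay above 1 and 2 held 1. Tek had 3 reads in Seh1cKO and 4 in control, and Cldn5 had 1 read in Seh1cKO and 0 in control. Microglial markers summed to 20.6 CPM in Seh1cKO and 10.3 CPM in control, with 1 of 4 measured at least 2-fold higher. Neuronal markers summed to 508 CPM in Seh1cKO and 468 CPM in control, of which Map2 held 270 CPM in Seh1cKO and 279 CPM in control. Of 12 measured neuronal markers 9 had a log2 ratio above 0, 2 were at least 2-fold higher and the median was 0.59. The higher ones were Neurod1, at 7.86 CPM in Seh1cKO and 1.88 CPM in control, and Stmn2, at 58.7 CPM in Seh1cKO and 28.7 CPM in control. Fibroblasts, mural cells, endothelium and epithelia are known to make laminins, nidogens and fibronectin, and the part of any of these cell types in the differences was not tested.

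Laminin chains were higher in Seh1cKO as a family, and the scarce chains Lamc3 and Lamb3 had the largest CPM ratios. All 10 measured chains had a log2 ratio above 0, 6 were at least 2-fold higher, and the median was 1.31. Lamb1, the beta chain of laminins of early and embryonic basement membranes (Entrez 16777, GRCm38 chromosome 12, 31265146 to 31329644), was at 82.4 CPM in Seh1cKO and 19.3 CPM in control. Its ratio was 4.26 (3.82 to 4.76), from 1697 reads in Seh1cKO and 401 in control. Lamb2, the more abundant beta chain, was at 188 CPM in Seh1cKO and 183 CPM in control, a ratio of 1.02 (0.980 to 1.07) whose log2 value turned negative under median of ratios and upper quartile scaling. Per length, on the deposited FPKM scale (reads per kilobase of transcript and 1000000 reads), Lamb1 made up 29.4% of the summed level of the 3 beta chains in Seh1cKO and 9.3% in control. Lamb2 made up 68.9% in Seh1cKO and 90.4% in control. Lamb3, a chain of epithelial laminin, was far lower, at 3.20 CPM in Seh1cKO and 0.434 CPM in control. Its 66 reads in Seh1cKO and 9 in control gave a ratio of 7.38 with a wide interval (3.66 to 16.8).

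Among the gamma chains, Lamc1, the common partner in most laminins (chromosome 1, 153218922 to 153332786), was at 196 CPM in Seh1cKO and 127 CPM in control. That was 1.55-fold higher (1.47 to 1.63), within 2-fold. It made up 92.6% of the summed FPKM of the gamma chains in Seh1cKO and 97.7% in control. Lamc3, known from basement membranes of the pia and retina, was at 4.51 CPM in Seh1cKO and 0.579 CPM in control, 7.80-fold higher (4.26 to 15.6). It is a low gene, with 93 reads in Seh1cKO and 12 in control. Lamb3 and Lamc3 were past 2-fold on the log2(CPM + 1) scale. They were within 2-fold with a pseudocount of 5 CPM or on log2(FPKM + 1), where the added 1 exceeds their FPKM. Without it, the FPKM of Lamb3 was 0.79 in Seh1cKO and 0.11 in control. That of Lamc3 was 0.75 in Seh1cKO and 0.1 in control.

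The alpha chains, which carry the receptor-binding domains, were higher in Seh1cKO for all 4 measured members. Lama1, the chain of embryonic laminin (chromosome 17, 67697127 to 67822645), was at 16.1 CPM in Seh1cKO and 4.00 CPM in control, 4.03-fold higher (3.16 to 5.18). Lama4, known from vessel walls and nerve, was at 34.7 CPM in Seh1cKO and 16.0 CPM in control, 2.17-fold higher (1.90 to 2.48). Its log2 ratio of 1.07 was the nearest above the 2-fold line. Lama4 was within 2-fold with a pseudocount of 5 CPM, under median of ratios scaling and on log2(FPKM + 1). Lama1 was within 2-fold on log2(FPKM + 1). Without the added 1, the FPKM of Lama4 was 5.67 in Seh1cKO and 2.61 in control. That of Lama1 was 1.67 in Seh1cKO and 0.41 in control. Lama2, the chain of the laminin whose loss causes muscular dystrophy with white matter changes, was at 19.9 CPM in Seh1cKO and 11.4 CPM in control, a ratio of 1.75 (1.49 to 2.06). Lama5, the most abundant alpha chain in both libraries by FPKM, was at 90.2 CPM in Seh1cKO and 63.9 CPM in control, a ratio of 1.41 (1.31 to 1.52). Summed over the 5 alpha chains, FPKM came to 17.2 in Seh1cKO and 9.74 in control, of which Lama5 held 45.2% in Seh1cKO and 56.7% in control. Lama3, the epithelial alpha chain, was below 1 CPM in both libraries, with 18 reads in Seh1cKO and 11 in control.

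Proteins that join laminins into basement membranes did not share a direction. Nid1, which bridges laminin and type IV collagen (Entrez 18073, chromosome 13, 13437602 to 13512275), had the largest log2 ratio of the 42 measured genes. It was at 156 CPM in Seh1cKO and 20.4 CPM in control, 7.65-fold higher (6.91 to 8.48), from 3207 reads in Seh1cKO and 422 in control. Nid2, its paralog, was at 27.1 CPM in Seh1cKO and 13.2 CPM in control, a ratio of 2.05 (1.77 to 2.38). Its log2(CPM + 1) ratio of 0.98 was the nearest below the 2-fold line, and 437 of its exon bases also belong to Rtraf on the other strand. Hspg2, which encodes perlecan, was at 133 CPM in Seh1cKO and 96.5 CPM in control, 1.38-fold higher (1.30 to 1.46). Agrn, which encodes agrin, was at 225 CPM in Seh1cKO and 284 CPM in control, 1.26-fold lower (1.22 to 1.31). By FPKM, Agrn was the more abundant of the 4 in both libraries, and Nid1 was the 2nd in Seh1cKO and the 3rd in control.

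**Figure D2:**
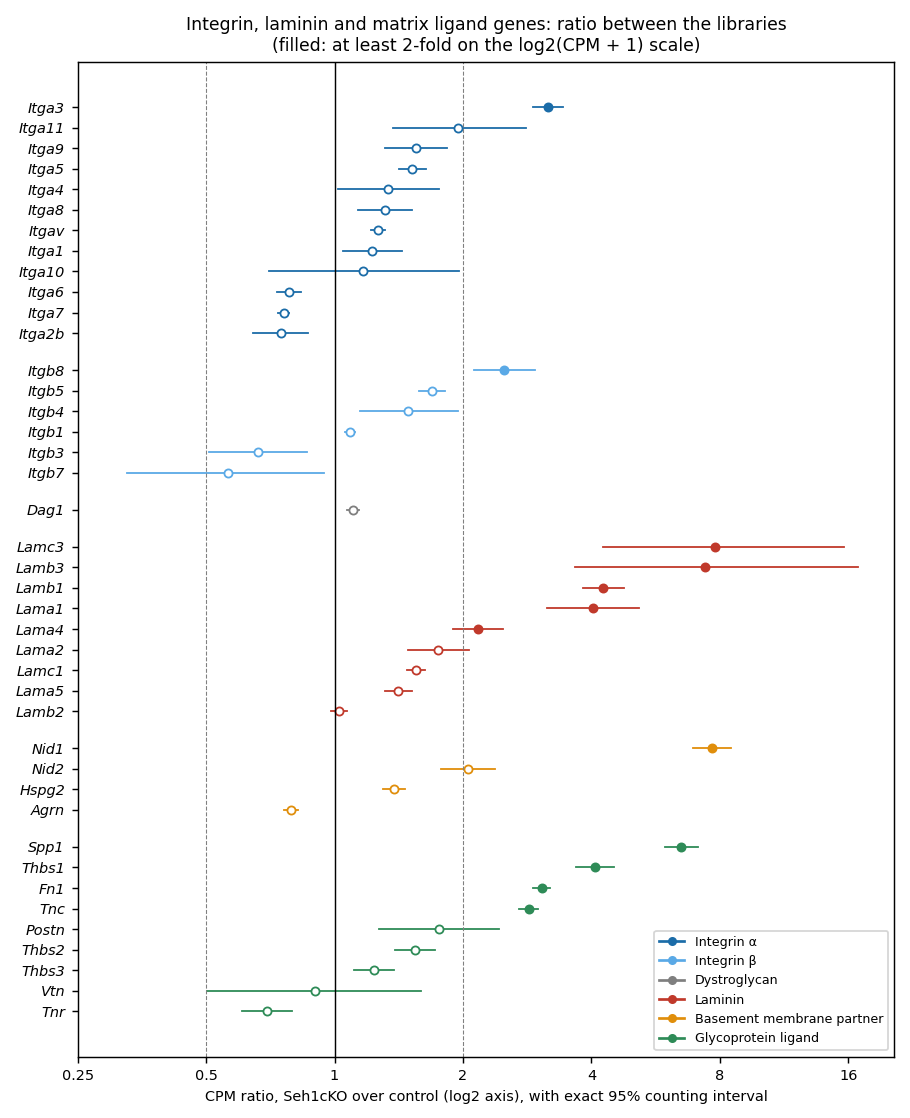
Points are the CPM ratios of Seh1cKO over control for 41 of the 42 measured genes, on a log2 axis, with exact 95% counting intervals as bars. Dashed lines mark 2-fold and filled points are genes at least 2-fold higher on the log2(CPM + 1) scale. The filled points run from Lama4 at 2.17 to Lamc3 at 7.80, and the lowest ratio is that of Itgb7 at 0.562.

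Among the adhesive glycoproteins, osteopontin and fibronectin stood furthest apart. Spp1, which encodes osteopontin, a secreted ligand of integrins that contain Itgav (Entrez 20750, chromosome 5, 104435111 to 104441053), was at 178 CPM in Seh1cKO and 27.4 CPM in control. That was 6.50-fold higher (5.95 to 7.11), from 3675 reads in Seh1cKO and 569 in control. By FPKM it was at 126 in Seh1cKO and 19.4 in control, rank 2 of the 50 genes in Seh1cKO and rank 7 in control. Fn1, which encodes fibronectin, the classical ligand of Itga5 with Itgb1 (chromosome 1, 71585473 to 71653280), was at 348 CPM in Seh1cKO and 114 CPM in control, 3.06-fold higher (2.92 to 3.21). Postn, the matrix protein periostin of fibroblasts, was at 5.24 CPM in Seh1cKO and 2.99 CPM in control, a ratio of 1.75 (1.27 to 2.44). Vtn, which encodes vitronectin, was scarce, at 1.21 CPM in Seh1cKO and 1.35 CPM in control, and the libraries were not separated (0.899, interval 0.502 to 1.60).

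The tenascins went opposite ways. Tnc, a large matrix protein of immature astrocytes and healing tissue (chromosome 4, 63959785 to 64047015), was at 278 CPM in Seh1cKO and 97.6 CPM in control, 2.85-fold higher (2.71 to 3.00). Tnr, the tenascin that oligodendrocyte lineage cells and some neurons make (chromosome 1, 159523729 to 159931729), was at 17.7 CPM in Seh1cKO and 25.5 CPM in control, 1.44-fold lower (1.26 to 1.65). By FPKM, Tnc was at 38.7 in Seh1cKO and 13.6 in control, and Tnr at 3.24 in Seh1cKO and 4.67 in control. Astrocyte markers were lower in Seh1cKO for 8 of 11 measured genes and higher for 3. Gfap, the only 1 past 2-fold, was at 2214 CPM in Seh1cKO and 5200 CPM in control. Oligodendrocyte markers were lower as given above. The part of either in the tenascin values was not tested.

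Thrombospondins, modular glycoproteins that bind integrins, CD47 and heparan sulfate, were higher in Seh1cKO for all 3 measured members. Thbs1, known to activate latent TGF-beta (chromosome 2, 118111876 to 118127133), was at 92.5 CPM in Seh1cKO and 22.7 CPM in control, 4.08-fold higher (3.69 to 4.52). Thbs2, known from fibroblasts and astrocytes, was at 40.8 CPM in Seh1cKO and 26.4 CPM in control, 1.55-fold higher (1.39 to 1.72). Thbs3 was at 37.8 CPM in Seh1cKO and 30.6 CPM in control, 1.24-fold higher (1.11 to 1.38), and 318 of its exon bases also belong to Mtx1 on the other strand. The order by FPKM differed, with Thbs1 the most abundant in Seh1cKO (45.5% of the summed level of the 4 genes) and Thbs3 in control (53.1%). Thbs4 was below 1 CPM in both libraries, with 11 reads in Seh1cKO and 10 in control.

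Integrin chains differed less than the ligands. Of 18 measured integrins 2 were at least 2-fold higher, against 2.86% of all measured genes, none passed 2-fold downward, against 1.29%, and the median log2 ratio was 0.34. Laminin-binding alpha chains were split. Itga3, an epithelial receptor of laminins that hold Lama3 or Lama5 (Entrez 16400, chromosome 11, 95044475 to 95076844), was at 119 CPM in Seh1cKO and 37.5 CPM in control, 3.16-fold higher (2.92 to 3.43). Itga6, the laminin receptor best known from oligodendrocytes (chromosome 2, 71786886 to 71858427), was at 84.1 CPM in Seh1cKO and 107 CPM in control, 1.28-fold lower (1.20 to 1.36). Itga7, known as the laminin receptor of muscle (chromosome 10, 128933421 to 128958286), was at 381 CPM in Seh1cKO and 501 CPM in control, 1.32-fold lower (1.28 to 1.36). By FPKM Itga7 was the most abundant of the 16 alpha chains in both libraries, with 45.3% of their summed level in Seh1cKO and 59.5% in control. Itga3 made up 11.8% in Seh1cKO and 3.78% in control, and Itga6 6.71% in Seh1cKO and 8.59% in control. The summed FPKM of all alpha chains was close, at 206 in Seh1cKO and 207 in control.

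Receptors of ligands with an RGD sequence, such as fibronectin and osteopontin, were within 2-fold. Itgav, the chain shared by several such receptors, was at 282 CPM in Seh1cKO and 223 CPM in control, 1.26-fold higher (1.22 to 1.31). Itga5, the fibronectin receptor chain, was at 86.7 CPM in Seh1cKO and 56.9 CPM in control, 1.52-fold higher (1.41 to 1.64). Itga8, a receptor chain for nephronectin, was at 20.5 CPM in Seh1cKO and 15.6 CPM in control, a ratio of 1.31 (1.13 to 1.52). Itga2b, best known from platelets, was at 15.0 CPM in Seh1cKO and 20.1 CPM in control, 1.34-fold lower (1.15 to 1.55).

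The other 5 measured alpha chains had ratios above 1, with an interval that included 1 for Itga10. Itga9, a receptor chain for Tnc and osteopontin, was at 17.8 CPM in Seh1cKO and 11.4 CPM in control, a ratio of 1.55 (1.32 to 1.84). Itga4, known from leukocytes, was at 6.31 CPM in Seh1cKO and 4.73 CPM in control, a ratio of 1.33 (1.02 to 1.75), and shares 1124 exon bases with Cerkl on the other strand. Among the collagen receptors, Itga1 was at 17.0 CPM in Seh1cKO and 13.9 CPM in control, a ratio of 1.23 (1.05 to 1.44). Itga11, a fibroblast chain, was at 4.61 CPM in Seh1cKO and 2.36 CPM in control, a ratio of 1.95 (1.37 to 2.81). Itga10, known from cartilage, was at 1.75 CPM in Seh1cKO and 1.50 CPM in control, and its interval (0.703 to 1.95) included 1. Itga1 and Itga10 also share exon bases on their own strand with the gene models Gm49395 (685) and Gm42957 (1739), and the sources used here do not say how such reads were assigned.

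Beta chains likewise lay on both sides of equality. Itgb1, the partner of most alpha chains above (chromosome 8, 128685654 to 128733579), was at 646 CPM in Seh1cKO and 594 CPM in control, 1.09-fold higher (1.06 to 1.11). It ranked 1 of the 50 genes by FPKM in both libraries and made up 78.3% of the summed beta chain FPKM in Seh1cKO and 85% in control. Itgb8, which pairs with Itgav and activates latent TGF-beta (chromosome 12, 119162803 to 119238276), was at 24.6 CPM in Seh1cKO and 9.84 CPM in control, 2.50-fold higher (2.12 to 2.96), and within 2-fold with a pseudocount of 5 CPM. Itgb5, a further partner of Itgav, was at 105 CPM in Seh1cKO and 62.1 CPM in control, 1.69-fold higher (1.58 to 1.81). Itgb3, which pairs with Itgav or Itga2b, was at 4.76 CPM in Seh1cKO and 7.19 CPM in control, 1.51-fold lower (1.16 to 1.97). Itgb4, the hemidesmosome chain that pairs with Itga6, was at 7.04 CPM in Seh1cKO and 4.73 CPM in control, a ratio of 1.49 (1.14 to 1.94). Itgb7, a leukocyte chain, was at 1.17 CPM in Seh1cKO and 2.07 CPM in control, from 24 reads in Seh1cKO and 43 in control, 1.78-fold lower (1.06 to 3.07).

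**Figure D3:**
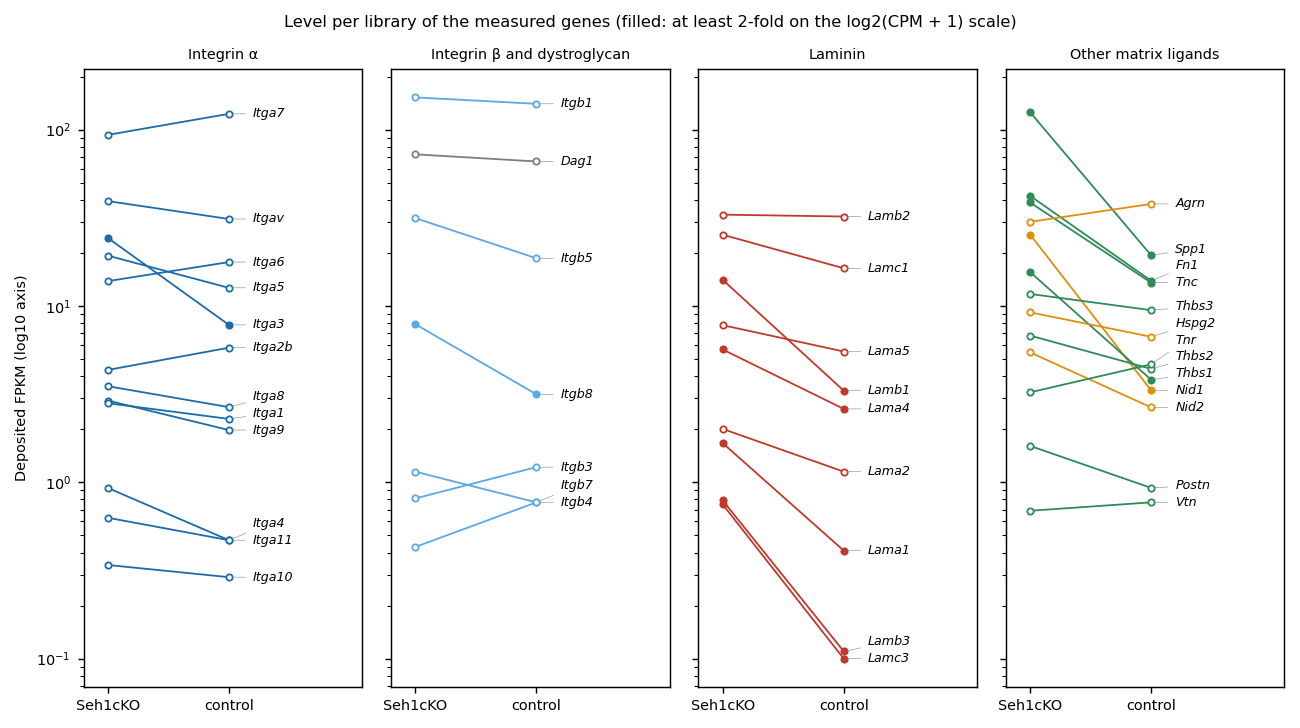
Lines join the deposited FPKM of 41 of the 42 measured genes in Seh1cKO (left) and control (right), on a log10 axis, in 4 panels by family. Filled points are genes at least 2-fold higher in Seh1cKO on the log2(CPM + 1) scale. Itgb1, at 152 in Seh1cKO and 140 in control, stands at the top in both libraries, and Spp1 lies next to it in Seh1cKO, at 126 against 19.4 in control.

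The remaining integrins were below a mean of 1 CPM. They were Itga2, Itgae, Itgal, Itgam, Itgb2 and Itgb6, with at most 24 reads in a library. Itgam and Itgb2, which pair on microglia and neutrophils, each had 24 reads in Seh1cKO and 13 in control. Itgb6, an epithelial partner of Itgav, had 2 reads in Seh1cKO and none in control, where a count of 0 allows up to 3 reads, or 0.145 CPM.

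Dag1, which encodes dystroglycan, a laminin receptor outside the integrin family (chromosome 9, 108204861 to 108263977), was near equal at 400.3 CPM in Seh1cKO and 362 CPM in control. The ratio was 1.10 (1.07 to 1.14). It was the 4th most abundant of the 50 genes by FPKM in Seh1cKO and the 3rd in control. Of 11 measured genes of the dystrophin complex, with the laminin receptor Bcam among them, all were within 2-fold, with a median log2 ratio of -0.04. Utrn, a paralog of dystrophin, was at 46.7 CPM in Seh1cKO and 32.1 CPM in control, and Bcam at 39.4 CPM in Seh1cKO and 52.2 CPM in control. All 12 measured enzymes that build the laminin-binding glycan of dystroglycan were within 2-fold as well, with a median of 0.11. Most genes were, since 13186 of all 13758 measured genes lay within 2-fold, with a median of 0.07. Among them Pomgnt2 was at 32.2 CPM in Seh1cKO and 27.5 CPM in control.

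Inside the cell, the proteins that couple integrins to actin lay on both sides of equality. Of 39 measured genes of this adhesion machinery, among them talins, kindlins, paxillin and focal adhesion kinase, none passed 2-fold upward and 1 passed it downward, against 2.86% and 1.29% of all measured genes. The median log2 ratio was 0.01, with values between -2.09 and 0.95, and the counting intervals lay above 1 for 16 genes, below 1 for 13 and held 1 for 10. With a pseudocount of 0.1 CPM 2 were at least 2-fold higher, and under median of ratios scaling 2 were lower. The lower one was Parvb, beta-parvin, which with Ilk and a Lims protein forms a complex on the beta chain tail. It was at 64.7 CPM in Seh1cKO and 278 CPM in control, 4.30-fold lower (4.05 to 4.56). Parva, its paralog, named after its values were seen, was at 197 CPM in Seh1cKO and 115 CPM in control, a ratio of 1.71 (1.63 to 1.80). Lims2, of the same complex, was at 20.3 CPM in Seh1cKO and 40.4 CPM in control, 1.99-fold lower (1.77 to 2.25). Ptk2b, the kinase related to focal adhesion kinase, was at 6.36 CPM in Seh1cKO and 2.80 CPM in control, a ratio of 2.27 (1.66 to 3.15). Apbb1ip, which links Rap1 to talin, was at 2.04 CPM in Seh1cKO and 0.579 CPM in control, a ratio of 3.52 (1.82 to 7.35), and both were within 2-fold on the log2(CPM + 1) scale. Among 10 membrane proteins that associate with integrins, 5 had a log2 ratio above 0 and 5 below, with a median of 0.02. Of the 10, 1 was at least 2-fold higher, against 2.86% of all measured genes and 6.96% of those with a mean of 1 to 10 CPM. This was Plaur, the urokinase receptor, at 8.25 CPM in Seh1cKO and 1.40 CPM in control, 5.90-fold higher (3.96 to 9.08), and its mean fell short of a floor of 5 CPM.

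Further matrix glycoproteins had log2 ratios above 0 for 23 of 28 measured genes (82.1%), against 60.9% of all measured genes. In Seh1cKO 10 passed 2-fold upward and 1 downward, against 2.86% and 1.29% of all measured genes, with a median log2 ratio of 0.45. The 10 became 3 with a pseudocount of 5 CPM, 4 on log2(FPKM + 1) and 6 with a floor of 5 CPM. Tgfbi, a secreted integrin ligand, was at 31.2 CPM in Seh1cKO and 4.63 CPM in control, 6.74-fold higher (5.43 to 8.44). Tnxb, a tenascin of connective tissue, was at 6.65 CPM in Seh1cKO and 1.40 CPM in control, 4.75-fold higher (3.17 to 7.36). Fbn1, the microfibril protein fibrillin, was at 73.5 CPM in Seh1cKO and 26.2 CPM in control, 2.81-fold higher (2.54 to 3.10). Tnn, a further tenascin, was at 6.89 CPM in Seh1cKO and 23.1 CPM in control, 3.35-fold lower (2.77 to 4.06). Fibroblast and mural cell markers summed to 770 CPM in Seh1cKO and 308 CPM in control. Those of simple epithelia and mesothelium summed to 219 CPM in Seh1cKO and 11.3 CPM in control. The part of these or of the other cell types above in this list was not tested.

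**Figure D4:**
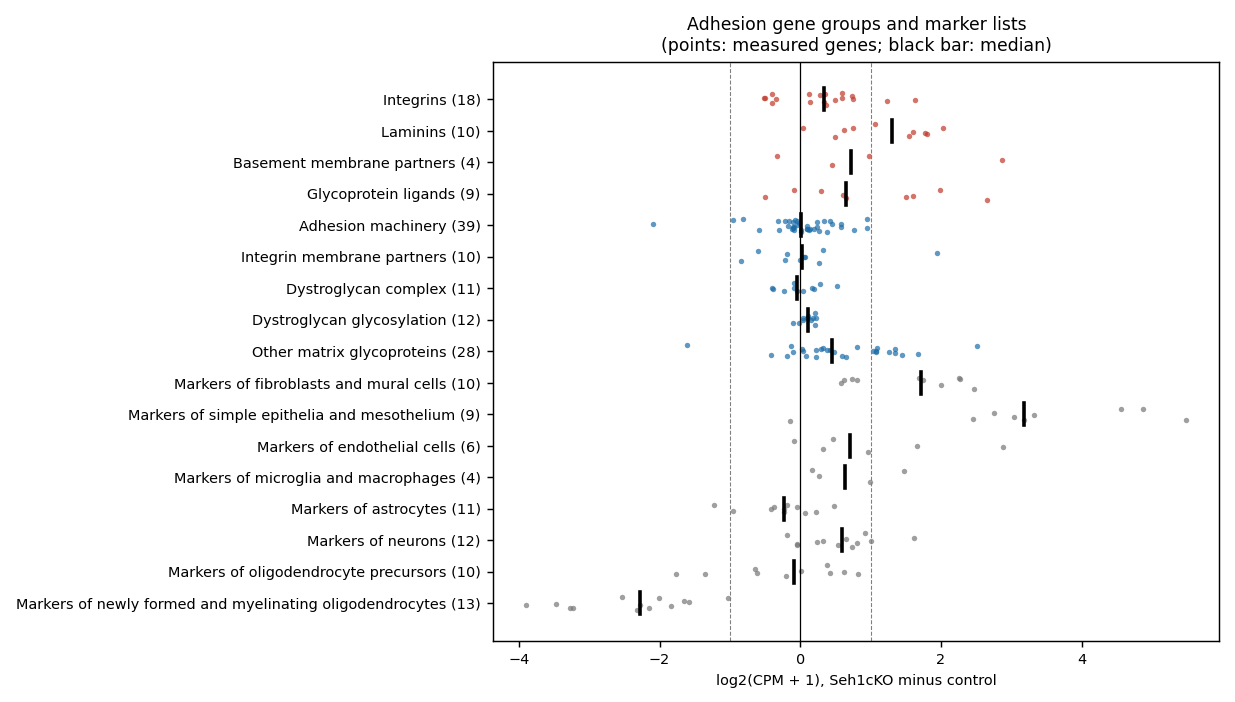
Each point is a measured gene, placed by log2(CPM + 1) in Seh1cKO minus control, in rows for the integrin, laminin and ligand families (red), related lists (blue) and marker lists (grey), with the number of genes in brackets, the median as a black bar and dashed lines at 2-fold. The laminin median is 1.31, that of integrins 0.34 and that of the adhesion machinery 0.01, while fibroblast and mural cell markers have a median of 1.72 and oligodendrocyte markers -2.28.

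In the authors' deposited table for this comparison, 14 of the 50 genes are listed, all as higher in Seh1cKO. Over all genes listed in either library, 3.53% are in the authors' deposited table as higher and 1.27% as lower. All 13 genes past 2-fold here are among the 14, and the other is Nid2. The log2 fold changes of the 14 in the authors' deposited table lie between 1.04 (Nid2) and 2.94 (Nid1), and the largest false discovery rate among them is 3.72e-11, from 1 library per group.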

How the data were processed

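Per the file headers, the authors deposited an expected count, an estimate of reads per gene that need not be whole, and an FPKM value per gene for each library. HTSeq and StringTie on mm10 are named in the submitters' processing notes, which do not say which tool made either column; the sources used here do not give the aligner or the strand setting. The authors' deposited comparison table holds log2 fold changes with p-values and false discovery rates, from a test that the sources used here do not name. Its 2 columns of expression values per library were not used.

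Expected counts were rounded, summed per library and scaled to 1000000 reads (CPM). Genes missing from a library were set to 0. The log2 ratio is log2(CPM + 1) in Seh1cKO minus control, which understates differences of low genes; a gene is measured at a mean of 1 CPM or more and called at 2-fold. Ratio intervals are Clopper-Pearson (scipy 1.17.1). The calculation was tested on simulated data with counting error only. Changes were planted, and intervals checked, in genes with many reads, so low genes and variation between cultures were not covered. Coordinates are RefSeq GRCm38.p6, the assembly behind mm10, matched by Entrez identifier for all 50 genes; exon overlaps with protein-coding genes come from GENCODE M21. Promoter windows were found for 34 of the 50 genes.

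The genes and the 13 comparison lists were chosen with earlier results of these data known. Values are given for the measured genes of the group, all counts cover the whole group, and 1 gene of it and 1 of another list are not reported by name here; of other lists, those past 2-fold (at most 4) or otherwise the 2 furthest apart, and up to 3 of the most abundant markers. Parva, Lims2, Ptk2b, Apbb1ip, Epcam and the endothelial, neuronal and precursor markers named are outside this rule, chosen after their values were seen. The same holds for the fibroblast and mural markers named beyond the 3 most abundant. Alternatives were pseudocounts of 0.1 and 5 CPM, median of ratios and upper quartile scaling, deposited FPKM, and no floor or a floor of 5 CPM. The alternative on FPKM compared log2(FPKM + 1), which understates differences of genes with low FPKM, and measured genes at a mean FPKM of 1 or more.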

Additional observations from a re-analysis of the deposited data

How the results depend on the processing

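The direction of 41 of the 42 measured genes was the same under the 5 alternatives that alter a gene's value (pseudocounts, scalings and FPKM), the exception being Lamb2 under median of ratios and upper quartile scaling. The number of genes of the group at least 2-fold higher was 8 with a pseudocount of 5 CPM and 8 on deposited FPKM (33 genes measured), against 13, and lay between 10 and 14 under the others. None was at least 2-fold lower under any of the 7 alternatives. With 5 CPM, Lama4, Lamb3, Lamc3 and Itgb8 were among those within 2-fold, on FPKM Lama1, Lama4, Lamb3 and Lamc3, and under median of ratios scaling Lama4. Nid2 passed 2-fold with a pseudocount of 0.1 CPM.

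Over all genes, against 394 higher and 178 lower, 637 were higher with a pseudocount of 0.1 CPM, 141 higher and 116 lower with 5 CPM, 228 higher on FPKM (56.9% of calls, against 68.9%) and 228 higher with a floor of 5 CPM. Their median log2 ratio was 0.055 with 5 CPM, -0.0050 under median of ratios scaling, 0.033 under upper quartile scaling, 0.052 on FPKM and 0.055 with a floor of 5 CPM. In the adhesion machinery 2 genes were higher with 0.1 CPM and 2 lower under median of ratios scaling. Of the integrin membrane partners 0 were higher with a floor of 5 CPM. Among other matrix glycoproteins 3 were higher with 5 CPM, 4 on FPKM and 6 with a floor of 5 CPM. The cause was not tested.

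No paired analysis was possible because each group has 1 library, and for the same reason no replicate was left out. Depth limits the low genes, such as Itgb7, whose 24 reads in Seh1cKO and 43 in control gave an interval of 1.06 to 3.07.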

Other observations

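Some of these genes are neighbours in the genome. Itga2 and Itga1 lie 26.0 kb apart on chromosome 13 with no protein-coding gene between them; Itga1 was at 17.0 CPM in Seh1cKO and 13.9 CPM in control, and Itga2 had 6 reads in Seh1cKO and 1 in control. Dag1 and Lamb2 lie 216 kb apart on chromosome 9 with 11 protein-coding genes between them, and their CPM ratios of Seh1cKO over control were 1.10 and 1.02.

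Receptor and ligand genes that are known to work together did not stand equally far apart. The ligand Fn1 had a ratio of 3.06, and its receptor chains Itga5 and Itgb1 had ratios of 1.52 and 1.09. For the ligand Spp1 the ratio was 6.50, and for the receptor chains Itgav, Itgb5 and Itgb3 it was 1.26, 1.69 and 0.662. These are values of 2 libraries, and the differences between them were not tested.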
